A study of Mus musculus with 3 samples.

Results

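The genes described here are 10 transcription factors that mark bands of dividing cells along the back-to-belly axis of the neural tube: Pax6, Pax7, Irx3, Gsx2, Lmx1a, Dbx1, Dbx2, Nkx6-1, Olig2 and Nkx2-2. They were chosen by gene name in the array files, as 10 of 30175 names, and every probe of each was taken, which gave 13 of 39429 probes. RNA came from mouse embryoid bodies, clumps of differentiating embryonic stem cells, after 10 days in suspension culture without LIF. Wild-type embryoid bodies were compared with embryoid bodies of the genotype Dido3deltaCT+HADido3CT, a Dido3 truncated at its C-terminus in cells that overexpress the missing end. They are called mutant+CT below. There were 3 biological replicates of each, and each of 3 arrays carried 1 RNA of either kind, with mutant+CT in Cy3 on replicates 1 and 3 and in Cy5 on replicate 2. No group used here carried the truncation or the overexpression alone, so their effects cannot be told apart, and the labels name neither the promoter used nor the number of cell clones.

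In the embryo, Sonic hedgehog from the notochord and floor plate and BMP and Wnt proteins from the roof plate set the position of each progenitor band. Pax6, Pax7, Irx3 and the Dbx factors belong to the dorsal and intermediate bands and Nkx6-1, Olig2 and Nkx2-2 to the ventral ones, and several of them repress a neighbour, which sharpens the borders. Each band gives rise to its own kinds of neuron. Some of these factors also act elsewhere: Pax6 in the eye, forebrain and pancreas, Pax7 in muscle precursors and neural crest, Nkx2-2 and Nkx6-1 in the pancreas, and Lmx1a in the midbrain floor plate.

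Most of the 10 factors had a lower signal in mutant+CT, with Dbx1, Pax6 and Lmx1a the lowest, and Dbx2 had a higher one. Of the 13 probes, 12 had a mean log2 ratio of mutant+CT over wild type below 0. The median over all tested genes was -0.00, and the share of all probes below 0 was not taken. Some factors were read by a pair of probes. None of the differences passed the test over all genes. A probe was tested when it was well above background, as the scanner software marks it, on all 3 arrays in wild type or on all 3 in mutant+CT. That held for 10 of the 13 probes and 9 of the 10 genes, Pax7 being the gene left out. Dbx1, Gsx2 and Olig2 passed through wild type alone, with 2 of 3 arrays above background in mutant+CT, so their being lower is partly set by the filter. In limma with Benjamini-Hochberg adjustment over 20368 genes, 0 of the 9 factors and 0 genes in all (0%) had an adjusted p under 0.05. At an unadjusted p under 0.05 limma gave 7 of the 9 lower and 1 higher, against 6.71% of all genes lower and 9.05% higher. At an adjusted p under 0.1, limma gave 2 of the 9, both lower, against 0.471% of all genes.

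The share of spots well above background ran from 68.1% to 78.5% over the 6 RNAs, and 0 spots were saturated. Replicates 1 and 3 correlated at 0.54 across genes, 2 and 3 at 0.38 and 1 and 2 at 0.18 (Pearson), and genes are not independent replicates. Replicate 2 alone had the dyes the other way round, so a dye effect and a difference of that replicate cannot be told apart. Dido1, the gene of the Dido3 protein, had ratios of 3.53, 1.79, 0.77 and -2.39 at its 4 probes, whose place relative to the deleted part is not known here. Fewer cells of a type and less RNA in each cell cannot be told apart in RNA of whole embryoid bodies. Intensities below are in scanner units after background correction and dye normalization, for the 3 arrays in the order of replicates 1, 2 and 3, and ratios are log2 values, mutant+CT divided by wild type, with the SD between arrays after the mean.

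Pax6, a paired-box homeodomain factor of most progenitors between the dorsal and ventral ends of the neural tube, was measured by a pair of probes. Their 60 bases are given here because they read different stretches of the transcript, and the capitals mark the longest run they share, 6 bases.
A_55_P2022946: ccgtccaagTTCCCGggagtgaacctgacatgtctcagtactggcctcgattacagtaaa
A_52_P469306: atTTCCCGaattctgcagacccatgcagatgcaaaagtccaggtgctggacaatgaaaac
In mm9 coordinates, the former lies at chr2:105536454-105536513 on the plus strand, from base 2093 of transcript NM_013627. The latter starts at base 964 of the same transcript, and its 60 bases are spread over 852 bases of the genome (chr2:105524098-105524949), so it is interrupted in the genome.

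The tested Pax6 probe, A_55_P2022946, had intensities of 1324, 287 and 2606 in wild type. In mutant+CT it had 98.0, 91.1 and 145, with replicates 1 and 2 under 1.5 times the 95th percentile of negative controls. The groups did not overlap, and the highest mutant+CT array was below the lowest wild-type array, although the wild-type arrays themselves spanned 9.07-fold. The ratios were -3.76, -1.66 and -4.17, with a mean of -3.19 ± 1.35 (SD, n = 3), or 9.15-fold lower (limma, SE 0.52, adjusted p = 0.0998). By mean ratio Pax6 was 23rd from the bottom of the 20368 genes. The other probe, A_52_P469306, was not tested, being well above background on 2 arrays in wild type and 1 in mutant+CT. It had 237, 86.1 and 338 in wild type and 73.6, 68.0 and 96.5 in mutant+CT, and the groups overlapped. Its mean ratio of -1.28 ± 0.81 had the same sign as that of the tested probe, on every array.

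Pax7, the other paired-box factor, marks the dorsal progenitors. Its probe, A_51_P295131, lay near background, with 115, 87.2 and 127 in wild type and 70.2, 86.6 and 91.7 in mutant+CT. The groups overlapped and the mean ratio was -0.40 ± 0.36 (SD, n = 3). It was well above background on 2 of 3 arrays in either group and was not tested, so a difference in Pax7 was not detectable at this signal.

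**Figure D1:**
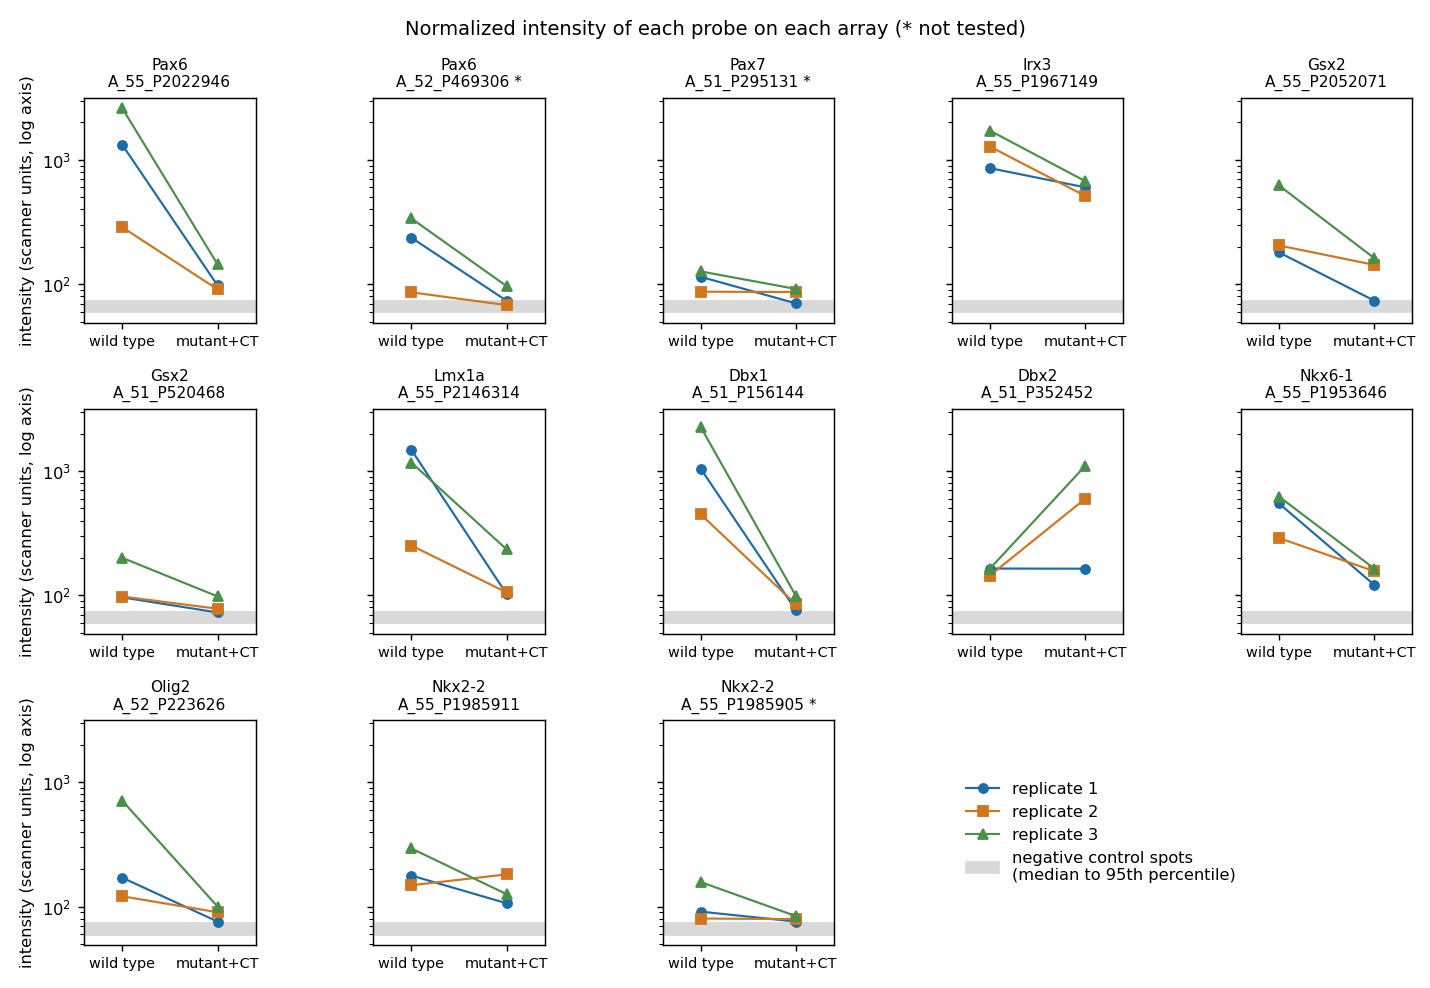
Normalized intensity (scanner units, log axis) of each of the 13 probes in wild type and mutant+CT, with a line per array joining the RNAs hybridised together; the grey band runs from the median to the 95th percentile of the negative control spots. For the tested Pax6 probe all 3 lines run down towards the band, from 2606 at the highest to 91.1 at the lowest, and for Dbx2 the lines of replicates 2 and 3 run up.

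Irx3, an Iroquois homeodomain factor of the intermediate and dorsal bands, was well above background on every array in both groups. Wild type had 858, 1281 and 1721 and mutant+CT had 602, 513 and 675. The groups did not overlap, and the mutant+CT arrays differed by 1.31-fold at most. The mean ratio was -1.06 ± 0.47 (SD, n = 3), or 2.09-fold lower (limma, SE 0.27, adjusted p = 0.173). On replicate 1 the ratio was -0.51, and on replicates 2 and 3 it was -1.32 and -1.35. Irx3 and Dbx2 had their smallest ratio on replicate 1, and the probes of all other factors had theirs on replicate 2.

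Gsx2, a homeodomain factor of dorsal spinal cord progenitors and of the ventral forebrain, was read by a pair of probes that lie close together at chr5:75473487-75473546 and chr5:75473670-75473729 (mm9, plus strand). The one that stood for the gene, A_55_P2052071, had 180, 205 and 622 in wild type and 73.8, 143 and 162 in mutant+CT. The groups did not overlap, and replicate 3 of wild type was well above the other arrays. Its mean ratio was -1.25 ± 0.71 (SD, n = 3; limma, adjusted p = 0.182). The other, A_51_P520468, had 96.4, 98.0 and 201 in wild type and 72.9, 78.1 and 98.2 in mutant+CT, overlapping, with -0.59 ± 0.39. Both were below 0 on every array.

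Lmx1a, a LIM homeodomain factor needed to form the roof plate, had 1479, 252 and 1170 in wild type and 102, 106 and 234 in mutant+CT. The groups did not overlap, but the highest mutant+CT array came close to the lowest wild-type array, that of replicate 2. The ratios were -3.86, -1.25 and -2.32, with a mean of -2.48 ± 1.31 (SD, n = 3), or 5.57-fold lower (limma, SE 0.51, adjusted p = 0.130). The mean was -1.79 without replicate 1 and -3.09 without replicate 2. Lmx1a was well above background on all 6 spots, although its mutant+CT value on replicate 1 lay under 1.5 times the 95th percentile of negative controls.

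The paralogs Dbx1 and Dbx2, homeodomain factors of the band at the middle of the neural tube, where Dbx1 marks the precursors of the V0 interneurons and Dbx2 covers a wider domain, had opposite ratios. The leading 30 of the 60 bases of each probe are shown because the genes are related while their probes are not. The longest run they share within these bases, in capitals, is 5 bases.
Dbx1 A_51_P156144: cagcttacctgagatgtgctctactGTGTA
Dbx2 A_51_P352452: accatttgacgggaacatactccGTGTAca
The Dbx1 probe lies at chr7:56887073-56887132 and the Dbx2 probe at chr15:95455071-95455130, both on the minus strand of mm9.

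Dbx1 had 1047, 450 and 2267 in wild type and 76.0, 84.7 and 99.0 in mutant+CT. The groups were far apart, and the mutant+CT values, with a spread of 1.30-fold, lay near the 95th percentile of negative controls in the same channels, which was 73.1, 64.4 and 68.1, and nearest on replicate 1. The ratios were -3.78, -2.41 and -4.52, with a mean of -3.57 ± 1.07 (SD, n = 3), or 11.9-fold lower (limma, SE 0.44, adjusted p = 0.0841). That was the lowest of the 9 tested factors and 18th from the bottom of all 20368 genes. Dbx1 was past the threshold in 5 of 15 other settings, 1 of them the looser threshold of 0.1. With limma the others gave an adjusted p of 0.0238 on Agilent's processed signals, 0.0438 with a variance prior that was trended and robust (0.29% of all genes called lower), 0.0171 in a separate-channel fit (0.682%) and 0.0411 without replicate 1 (0.334%). The highest adjusted p of limma over the 15 was 0.167, without replicate 3. Where a probe had to be above background in both groups, Dbx1, Gsx2 and Olig2 were not tested, and limma called 0 of the 6 factors left, against 0.0164% of all genes called lower.

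Dbx2 had nearly level wild-type values, 164, 144 and 164, and in mutant+CT it had 164, 598 and 1098. On replicate 1 the groups were nearly equal, while on replicates 2 and 3, which have opposite dyes, mutant+CT was far higher. The ratios were -0.00, 2.05 and 2.75, with a mean of 1.60 ± 1.43 (SD, n = 3), or 3.03-fold higher (limma, SE 0.55, adjusted p = 0.265). Replicate 1 decides this value. Without it the mean ratio was 2.40 and Dbx2 was called (limma, adjusted p = 0.0499). That fit had 2 arrays and called 92 of 20368 genes higher. Without replicates 2 or 3 the mean ratio was 1.37 or 1.02 and Dbx2 was not called. Between the paralogs, Dbx2 minus Dbx1 came to 3.78, 4.46 and 7.26 on the 3 arrays, a mean of 5.17 ± 1.85 (SD, n = 3), with the same sign on 3 of 3. The smallest p that an exact two-sided sign-flip permutation test can give over 3 arrays is 0.25, so the difference is given as values only, and on 1 mutant+CT array Dbx1 was not well above background.

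**Figure D2:**
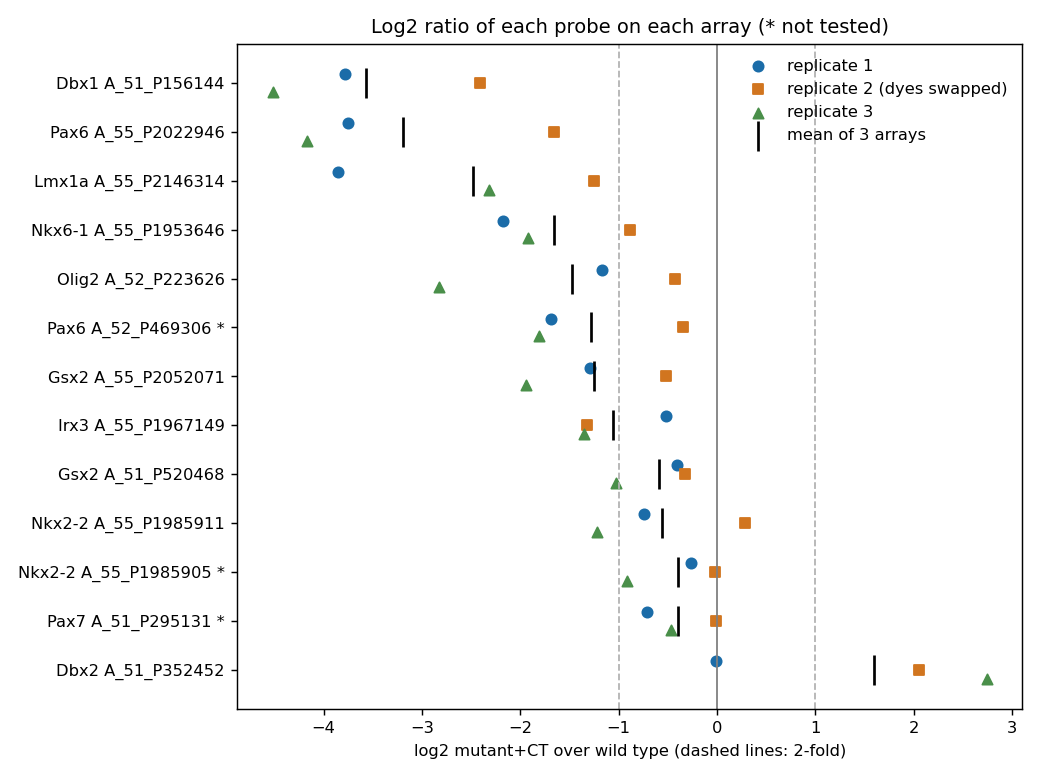
Log2 ratio of mutant+CT over wild type for each of the 13 probes, with a point per array and a black bar at the mean; dashed lines mark a 2-fold difference. Dbx1 is lowest at a mean of -3.57, Dbx2 is the 1 probe with a mean above 0, and the points of replicate 2 lie nearest to 0 for 11 of 13 probes.

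Among the ventral factors, Nkx6-1, a homeodomain factor of ventral progenitor bands and of pancreatic beta cells, had the clearest separation. It had 548, 289 and 622 in wild type and 121, 156 and 164 in mutant+CT. The groups did not overlap, and the wild-type array nearest to mutant+CT was again replicate 2. The ratios were -2.18, -0.89 and -1.92, with a mean of -1.66 ± 0.68 (SD, n = 3), or 3.16-fold lower (limma, SE 0.32, adjusted p = 0.121). It was called in 1 setting, a separate-channel fit without a dye term (limma, adjusted p = 0.0356).

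Olig2, the bHLH factor of motor neuron and oligodendrocyte progenitors, had 171, 121 and 710 in wild type and 75.7, 90.0 and 100.1 in mutant+CT. The groups did not overlap, and much of the distance came from the wild-type RNA of replicate 3. The ratios were -1.17, -0.43 and -2.83, with a mean of -1.48 ± 1.23 (SD, n = 3; limma, adjusted p = 0.248). Without replicate 3 the mean was -0.80.

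Nkx2-2, the homeodomain factor of the most ventral progenitors next to the floor plate, differed least among the tested factors. The probe of transcript NM_010919 had 177, 148 and 293 in wild type and 106, 181 and 126 in mutant+CT. The groups overlapped, and the ratios of -0.74, 0.29 and -1.22 did not share a sign (-0.56 ± 0.77, SD, n = 3; limma, adjusted p = 0.519). The probe of NM_001077632, which was not tested, had 91.0, 80.1 and 157 in wild type and 75.7, 79.2 and 83.8 in mutant+CT, also overlapping. Between the ventral factors and the others there was no common order: Nkx6-1 and Olig2 lay between Lmx1a and Gsx2, and Nkx2-2 lay above both.

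The arrays came in a like order for most probes. The wild-type intensity was lowest on replicate 2 for 10 of 13 probes and highest on replicate 3 for 11 of 13. The arrays were not scaled to each other, and the summed wild-type intensity of all genes itself ran from 9.2e+07 to 1.21e+08. The like count over all probes was not taken, so how far this order is array-wide was not tested. Among the 13 probes, the wild-type intensity was lowest on replicate 1 for Irx3 and both Gsx2 probes and highest there for Lmx1a and Dbx2. In mutant+CT 10, 7 and 6 of the 13 probes lay under 1.5 times the 95th percentile of negative controls on the 3 arrays, against 2, 4 and 0 in wild type. The like counts over all probes were not taken. An offset added to every spot draws the ratio of a dim spot towards 0, and how much it did so here was not tested apart from the background step. Over the 9 tested factors the median ratio was -1.29, -0.89 and -1.94 on replicates 1, 2 and 3 and -1.48 over the gene means, beside -0.00 over all genes. Lower on every array were 7 of the 9, against 17.4% of all genes, and 0 were higher on every array, against 20.3%. The groups' intensities did not overlap, with mutant+CT below, for the same 7, which are Pax6, Irx3, Gsx2, Lmx1a, Dbx1, Nkx6-1 and Olig2, against 6.36% of all genes, and with mutant+CT above for 0, against 8.93%. At least 2-fold lower on every array were 3, Dbx1, Pax6 and Lmx1a, against 0.992% of all genes, and none was at least 2-fold higher, against 1.90%. Where a probe had to be above background in both groups, 2 of the 6 factors left were at least 2-fold lower, Pax6 and Lmx1a, against 0.97%. Over the 2 arrays left without replicate 1 the count was 4 lower (2.55% of all genes) and 1 higher (3.7%), without replicate 2 it was 6 lower (2.8%), and without replicate 3 it was 3 lower (1.34%). These counts are descriptions, since the genes were picked as a family and 3 of them passed the filter through wild type alone.

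The ratios were larger with Agilent's processed signals, which differ from the intensities above in background, offset and dye normalization together. They gave -5.94 ± 1.45 (SD, n = 3) for Dbx1, -4.50 ± 1.26 for Pax6, -3.47 ± 1.64 for Lmx1a, -3.30 ± 1.98 for Olig2, -2.40 ± 0.99 for Nkx6-1 and 1.96 ± 1.75 for Dbx2. Irx3 had -1.19 ± 0.47 and moved little. Leaving out the background step and its offset together moved little as well, with -3.51 for Dbx1 and -3.12 for Pax6. With Agilent's processed signals limma called Dbx1 (adjusted p = 0.0238) and Pax6 (adjusted p = 0.0341), against 0.564% of all genes called lower. With the same signals 5 factors were at least 2-fold lower on every array, against 2.13%.

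**Figure D3:**
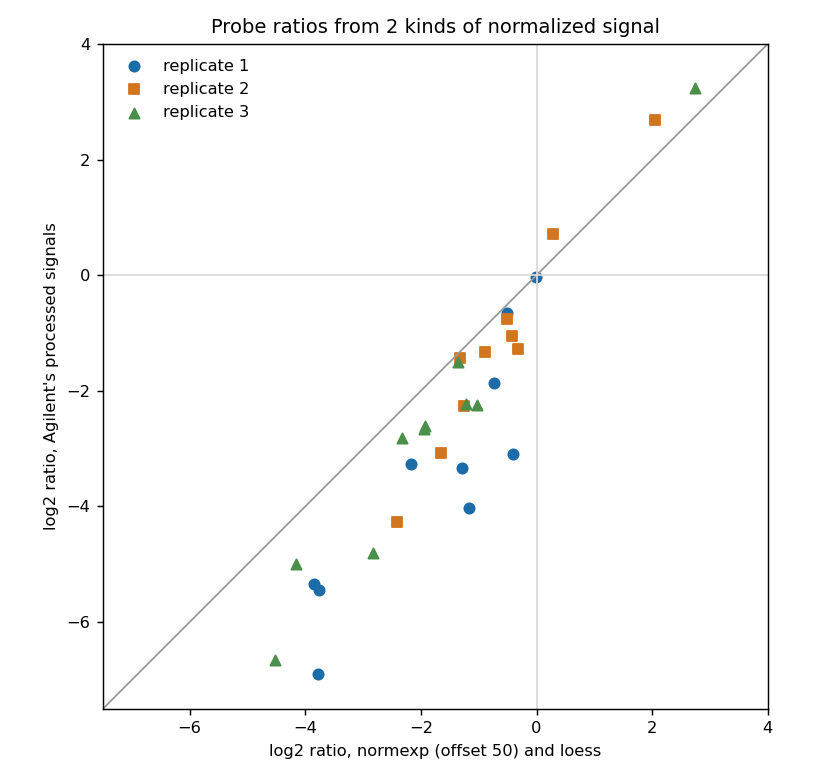
Log2 ratio of each of the 10 tested probes on each array after normexp and loess (horizontal axis) and with Agilent's processed signals (vertical axis); the grey line marks equal values. The points below 0 lie under the line, with a mean of -5.94 against -3.57 for Dbx1, while the points of Irx3 lie close to it.

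The promoters of the factors, in RefSeq's GRCm38.p6 sequences, were read over the 250 bases before each start. All 10 genes matched, with 11 promoters. They hold 8 to 30 CpG pairs, with a median of 13, against a median of 6 over 32851 promoters. The motif CATTGT, a core bound by Sox factors, was found on either strand in those of Dbx1, Dbx2 and Olig2, against 10.7% of all promoters. TATAAA was found in those of Gsx2, Dbx1 and Olig2, against 12.4%. The Gli site GACCACCCA was found in 0 of 11 (0.225% of all), the homeodomain core TAATTA in 0 (4.84%) and the retinoid half-site AGGTCA in 0 (14.0%), and the CATTGT and TATAAA matches do not overlap in the sequences shown. The Dbx pair and Olig2 are shown because they share the Sox core while their ratios differ in sign, with CATTGT and TATAAA in capitals.
Dbx1, chr7:49636836-49637085, minus strand: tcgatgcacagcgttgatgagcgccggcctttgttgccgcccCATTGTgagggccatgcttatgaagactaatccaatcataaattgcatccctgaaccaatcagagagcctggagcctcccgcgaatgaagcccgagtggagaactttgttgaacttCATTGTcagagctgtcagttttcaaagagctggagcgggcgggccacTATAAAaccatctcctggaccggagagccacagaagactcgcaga
Dbx2, chr15:95654772-95655021, minus strand: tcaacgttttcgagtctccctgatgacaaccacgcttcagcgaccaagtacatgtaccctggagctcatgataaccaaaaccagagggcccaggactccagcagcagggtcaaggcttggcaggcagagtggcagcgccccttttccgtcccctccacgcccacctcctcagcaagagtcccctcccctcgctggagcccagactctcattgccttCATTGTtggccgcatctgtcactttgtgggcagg
Olig2, chr16:91225300-91225549, plus strand: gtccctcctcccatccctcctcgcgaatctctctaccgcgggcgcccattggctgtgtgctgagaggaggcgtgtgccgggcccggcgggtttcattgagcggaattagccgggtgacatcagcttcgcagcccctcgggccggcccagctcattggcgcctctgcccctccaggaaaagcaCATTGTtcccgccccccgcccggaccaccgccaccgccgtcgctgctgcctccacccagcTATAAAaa
A match is only a run of letters and says nothing of binding.

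Other genes of the same patterning system were read from 4 lists. Among signals and signal responders of the floor and roof plates, 15 of 17 genes were measured, Shh and Wnt3a not being so. The list had a median ratio of -0.11, with 6 genes below 0 and 2 above 0 on all arrays, and 0 passed the test. The roof plate signal Wnt1 had -1.33 ± 0.89 (SD, n = 3; limma, adjusted p = 0.206), the hedgehog effector Gli3 -1.89 ± 1.41 and the hedgehog transducer Smo -1.09 ± 0.83. The hedgehog targets Gli1 and Ptch1 had 0.55 ± 0.40 and 0.14 ± 1.45 and the floor plate factor Foxa2 -0.60 ± 0.85, named after their values were seen.

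Of 18 other progenitor band factors, 10 were measured, with a median of -0.90. On all arrays 6 were below 0 and 1 above, and 0 passed the test. Sp8, a zinc finger factor, had -4.20 ± 1.45 at the probe that stood for it (SD, n = 3; limma, adjusted p = 0.0843) and -2.18 as the mean of its probes. Pax3, the dorsal partner of Pax7, had -1.16 ± 0.31, Nkx6-2, the paralog of Nkx6-1, -0.98 ± 0.11 and Prdm12, which marks the V1 progenitors, -1.21 ± 0.72. Olig1, Olig3, Gsx1, Prdm13, Neurog1, Ptf1a and Atoh1 were among those not measured. Of 25 factors of the neurons that leave the bands, 18 were measured, with a median of -0.16, and Mnx1, Lhx4, En1, Tlx3, Barhl2 and Sim1 were among those not measured. On all arrays 6 were below 0 and 3 above, and 0 passed the test. Lhx5 had -3.02 ± 1.93, Lhx2 -2.68 ± 2.33, Bhlhe22 -0.82 ± 0.40 and Gata3, which also acts in trophoblast and blood, 1.47 ± 1.03.

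General neural progenitor genes had a median of -1.73, and on all arrays 6 of 11 were below 0 and 1 above, with 0 past the test. The Notch target Hes5 had -3.92 ± 1.49 (SD, n = 3), Sox3 -2.19 ± 0.71 and the receptor Notch1 2.60 ± 1.00, or 1.30 as the mean of its probes. Pou3f2 was not well above background on any mutant+CT array. Its ratios were -3.08, -1.93 and -4.73, with an SD of 1.41, and its mean was at least 9.15-fold lower (limma, adjusted p = 0.101). The summed intensity of these 11 genes was 42662 to 93635 in wild type and 9987 to 50171 in mutant+CT. These ranges overlapped. The list's median was -1.06, -1.61 and -3.00 on replicates 1, 2 and 3, against -1.29, -0.89 and -1.94 for the patterning factors. Both were below 0 on every array, but their order over the arrays differed. The part of the list in the factors' ratios was not tested.

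**Figure D4:**
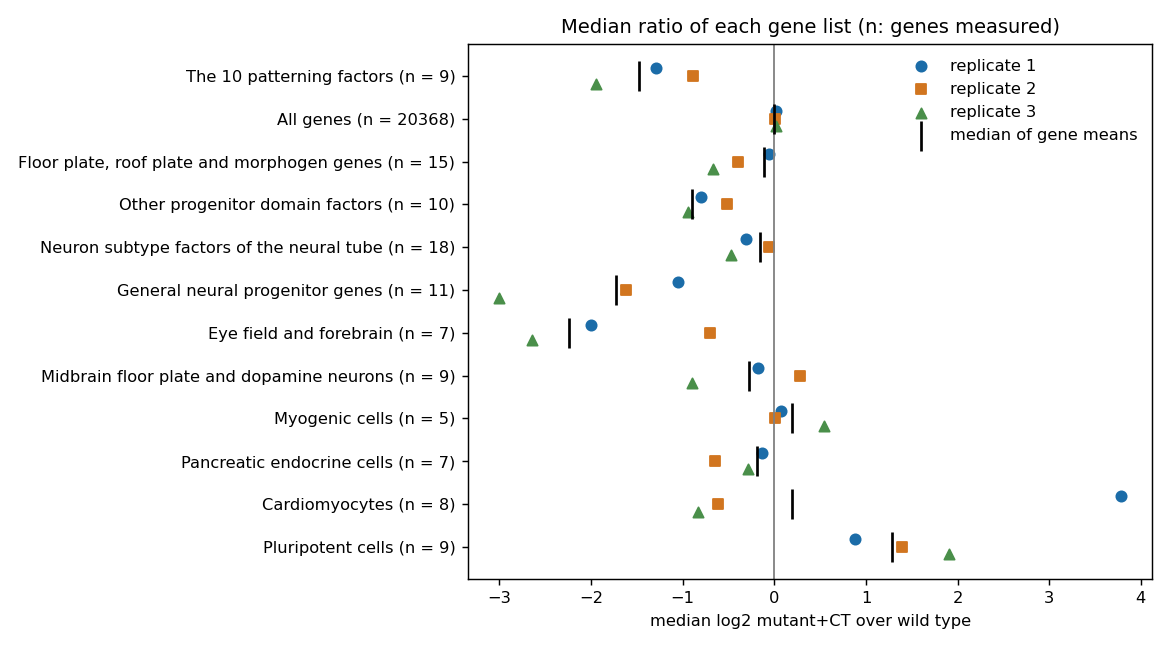
Median log2 ratio of mutant+CT over wild type for the patterning factors (9 of 10 measured), all genes tested and 10 further gene lists, with a point per array and a black bar at the median of gene means; n is the number of genes measured. The patterning factors have a median of -1.48. Also below 0 are eye field (-2.24), general neural (-1.73), other progenitor (-0.90), midbrain (-0.28), pancreatic (-0.19), neuron subtype (-0.16) and floor and roof plate genes (-0.11). The myogenic (0.19), cardiomyocyte (0.20) and pluripotent (1.28) lists lie above 0.

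Tissues that use some of these factors outside the neural tube were read from marker lists. Eye field and forebrain genes, which go with Pax6, had a median of -2.24, with 6 of 7 measured below 0 on all arrays and 0 past the test. Rax had -2.50 ± 0.35 (SD, n = 3; limma, adjusted p = 0.0733) and Six3 -2.24 ± 0.75. The summed intensity of the 7 measured genes was 15879 to 43883 in wild type and 11168 to 23050 in mutant+CT, and these ranges overlapped. Midbrain floor plate and dopamine neuron genes, which go with Lmx1a, had a median of -0.28, with 0 of 9 below 0 and 1 above 0 on all arrays, 0 past the test, and sums of 12417 to 15659 and 7893 to 18957. Myogenic genes, which go with Pax7, had a median of 0.19 over 5 of 9, with sums of 1536 to 1570 and 1464 to 3063, 0 past the test, and their defining factors Myf5, Myf6, Myod1 and Myog were not measured. Pancreatic endocrine genes, which go with Nkx2-2 and Nkx6-1, had a median of -0.19 over 7 of 10, with 0 past the test. Their sums were 1864 to 3653 and 1290 to 1754, and these ranges did not overlap. On all arrays 1 gene, Sst, was below 0 and 0 were above. Sst was well above background on 3 arrays in wild type and 0 in mutant+CT. Its ratios were -4.22, -0.87 and -3.69 (SD 1.80, n = 3), so its mean was at or below -2.93 (limma, adjusted p = 0.152). The defining factor Pdx1 was not measured.

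Markers of pluripotent cells had a median of 1.28, with 8 of 9 above 0 on all arrays and 0 past the test, and a summed intensity of 34766 to 46373 in wild type and 87874 to 233646 in mutant+CT. Dppa2 had 1.65 ± 0.18 (SD, n = 3) and Nr0b1 2.67 ± 0.91. Cardiomyocyte markers, at a median of 0.20 over 8 of 8, were 3.79 on replicate 1 and -0.62 and -0.84 on replicates 2 and 3, with sums of 13075 to 19303 and 7415 to 59518 and 0 past the test. Both moved with group or array beside the patterning factors, and their part in those ratios was not tested.

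The genes with the most similar ratios, by Euclidean distance over the 3 arrays, differed between the factors. For Pax6 they were Col2a1, a cartilage and notochord collagen (distance 0.82), Dbx1 (0.83) and 2810037O22Rik (0.89). For Dbx1 they were 2810037O22Rik (0.65), Fgfbp3 (0.75) and Pax6. For Gsx2 the nearest was Prdm12 (0.094), for Lmx1a the laminin Lama1 (0.51), for Olig2 D430019H16Rik (0.12) and for Irx3 Zfp938 (0.076), with the growth factor receptor Pdgfra next (0.16). For Dbx2 they were Triml1 (0.14), 2410024N13Rik (0.18) and Gpat2 (0.24), which like Dbx2 had a ratio near 0 on replicate 1 and high ones on the others. With 3 arrays and 20368 genes, distances of this size describe the arrays and are not tested.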

How the data were processed

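RNA of 3 wild-type and 3 mutant+CT cultures was measured on 3 two-colour Agilent mouse arrays from 1 scan. Per the file headers, version 10.7.3.1 of Agilent's Feature Extraction wrote the deposited scanner files, which give each spot's intensity and local background for Cy3 (green) and Cy5 (red), with mm9 probe coordinates. A processed intensity and the log10 of the red to green ratio stand beside them, as deposited. A further deposited table gives log2 ratios after the authors' normalization, for which the submitters' processing notes name limma. It ran as mutant+CT over wild type, with column medians of -0.02, 0.01 and -0.01 and correlations of 0.994, 0.996 and 0.998 with the ratios computed here. The exact steps behind its scale and centring are not given in the sources used here.

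From the intensities, normexp with an offset of 50 removed background, and loess evened the dyes within arrays with control spots at weight 0. Spots marked as outliers (454, 234 and 507) were set to missing, and ratios were turned to mutant+CT over wild type (R 4.3.3, limma 3.58.1). Of 39429 probes, 26291 were well above background on all 3 arrays in either group with no missing value. The brightest such probe stood for each of 20368 genes, named by RefSeq accession (15244 genes) or by the files. Each gene's mean ratio was compared with 0 by the moderated test of limma, with Benjamini-Hochberg adjustment over all genes at 0.05. Only this test was tried on simulated ratios, drawn independently for each gene and array, and the steps before it were not. A fold is written "at least" where a group was not well above background on any array, and it bounds the mean over the arrays, not each array. Named genes are the 10 factors and, of each list, the genes with the smallest p (4 at most), with the 3 genes nearest in pattern; a few genes of the lists are not reported here. The factors and lists were chosen with earlier results of these data known. The number of arrays limits the precision. The cultures are biological replicates, per the labels.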

Additional observations from a re-analysis of the deposited data

How the results depend on the processing

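The 9 tested factors kept their sign in every alternative in which they were measured, and 20 genes of the lists had 0 reversals among 316 values. Of these values 36 were newly past the threshold, some only at the looser one of 0.1. All alternatives reused the same arrays, and several could not turn a sign. Quantile normalization of average intensities, the filter in both groups, the trended prior, the looser threshold and the separate-channel fit left these genes' ratios unchanged wherever tested. For 7 of the 20, leaving out an array moved the fold by over 1.5 times, among them Gli3 (-1.11 without replicate 3), Lhx2 (-1.39 without replicate 3) and Lhx5 (-4.13 without replicate 2). With processed signals from Agilent, limma called 309 genes, 114 of them lower. It called 176 with the trended prior, 13 when a probe had to be above background in both groups, 472 in a separate-channel fit with the array as block (139 of them lower) and 302 at an adjusted p under 0.1, and from 0 to 160 when each array was left out. The separate-channel fit had no dye term, because its within-spot correlation could not be estimated with one. Of the factors, limma called 2 on processed signals (Dbx1, Pax6) and 1 with the trended prior (Dbx1). It called 3 in the separate-channel fit (Dbx1, Nkx6-1, Pax6), 2 at an adjusted p under 0.1 (Dbx1, Pax6), and from 0 to 2 when each array was left out. The 2 were Dbx1 and Dbx2 without replicate 1. The number of factors differing by 2-fold or more on all arrays was 3, and it was 5 on processed signals, 2 of 6 with the filter in both groups and 3 to 6 when each array was left out, which asks for fewer arrays. The median of the factors was -2.40 on processed signals and ran from -1.999 to -0.92 when each array was left out, -0.92 being without replicate 3. With a dye term Dbx1 had -3.28 and Pax6 -2.81 (limma, adjusted p = 0.138 for both). Without replicate 2 Pax6 had -3.96. Background limits the mutant+CT side: Dbx1 and Olig2 lie near the negative controls there on every array. The tested Pax6 probe also lay under 1.5 times their 95th percentile on replicates 1 and 2. So did Lmx1a, Gsx2 and Nkx2-2 on replicate 1. Each array holds 1 RNA of either group, so every ratio is already a paired value.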
